A study of Homo sapiens with 12 samples.

Results

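Accessible chromatin was described at 10 genes of the serum response factor pathway: SRF, its coactivators MRTFA and MRTFB, and the targets ACTA2, MYL9, TAGLN, CNN1, TPM1, VCL and FHL2. They were taken by name from the 20037 protein-coding genes of the RefSeq GRCh38 table, and every deposited summit inside a gene or within 10 kb of it was kept, which gave 75 of 188019 summits. All 10 genes held at least 1 summit in that window, as did 89.8% of protein-coding genes.

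The assay was ATAC-seq, which reads open DNA as sites that a transposase can reach, in HT1080, an established human fibrosarcoma line. Cells migrated for 48 h in rat tail collagen at 0.3 (low), 1 (medium) or 1.7 mg/mL (high), with 4 libraries at each concentration and 12 in all. All 3 groups carried the metalloproteinase inhibitor GM6001 at 20 µM, so no untreated cells were among them, and the labels do not say whether the 4 libraries of a group came from separate gels. The series asked how confinement by denser collagen changes chromatin, but the deposited list pooled all libraries: the values below have no replicates, and none compares the concentrations. Depth per library was unknown.

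SRF is a transcription factor that binds the CArG box, an A/T core between CC and GG. The coactivators MRTFA and MRTFB are held in the cytoplasm by monomeric actin. When actin filaments assemble they enter the nucleus, join SRF and switch on genes of the cytoskeleton, of adhesion and of contraction. In fibroblasts and smooth muscle this circuit ties gene expression to tension and spreading.

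The promoter sequences are shown because SRF binds through the CArG box. Accessible intervals held the boxes of SRF and the inner box of FHL2, but not the outer box of FHL2. The RefSeq table of promoter sequences (GRCh38.p14) held 18 windows of 300 bases for 8 of the 10 genes. MYL9 and TAGLN had no entry. The 250 bases before the start are printed 5′ to 3′ on the strand of the gene. Capitals mark CArG boxes in SRF and FHL2, boxes with 1 mismatch in ACTA2, and GGGCGG, the SP1 motif, in VCL, which held no CArG box in this window and had the highest pileup of the set.
SRF, chr6:43171019-43171268, plus strand: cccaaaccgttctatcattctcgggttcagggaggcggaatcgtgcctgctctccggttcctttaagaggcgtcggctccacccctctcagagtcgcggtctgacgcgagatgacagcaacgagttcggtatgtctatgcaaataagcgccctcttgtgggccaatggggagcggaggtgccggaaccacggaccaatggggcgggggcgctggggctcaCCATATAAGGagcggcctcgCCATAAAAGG
FHL2 inner start, chr2:105399052-105399301, minus strand: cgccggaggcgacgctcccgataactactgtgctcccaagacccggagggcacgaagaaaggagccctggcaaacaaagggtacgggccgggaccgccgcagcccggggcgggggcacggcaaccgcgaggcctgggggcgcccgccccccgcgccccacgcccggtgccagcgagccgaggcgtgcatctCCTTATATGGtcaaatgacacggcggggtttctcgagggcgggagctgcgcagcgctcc
FHL2 outer start, chr2:105438530-105438779, minus strand: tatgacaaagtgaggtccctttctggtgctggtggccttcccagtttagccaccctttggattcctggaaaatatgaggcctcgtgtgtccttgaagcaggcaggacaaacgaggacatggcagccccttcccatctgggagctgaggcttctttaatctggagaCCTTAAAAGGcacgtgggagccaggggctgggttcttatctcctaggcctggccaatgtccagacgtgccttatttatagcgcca
ACTA2 inner start, chr10:88952774-88953023, minus strand: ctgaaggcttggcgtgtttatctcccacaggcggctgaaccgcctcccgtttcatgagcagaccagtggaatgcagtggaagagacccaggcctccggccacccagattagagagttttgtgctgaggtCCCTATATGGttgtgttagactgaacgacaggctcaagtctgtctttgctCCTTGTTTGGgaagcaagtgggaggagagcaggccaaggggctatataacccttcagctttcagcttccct
VCL, chr10:73997866-73998115, plus strand: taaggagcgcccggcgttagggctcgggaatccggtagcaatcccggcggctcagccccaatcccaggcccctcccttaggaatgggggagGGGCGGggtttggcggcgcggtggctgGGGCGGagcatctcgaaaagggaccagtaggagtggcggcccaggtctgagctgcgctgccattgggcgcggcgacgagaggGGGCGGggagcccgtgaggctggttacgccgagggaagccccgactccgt

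With both strands searched, 4 of the 18 windows (22.2%) held a CArG box, against 1.29% of 35116 RefSeq promoter windows of the same length. They belonged to 2 genes, and 2 of the 4 were overlapping windows at the outer start of FHL2 that shared 1 box. SRF, which is known to act on its own promoter, had CCATATAAGG at -30 to -21 and CCATAAAAGG at -10 to -1, counted from its start base as 0. Both lay inside the accessible interval, with their middles 35.5 and 55.5 bp from its summit. FHL2 had CCTTATATGG at -59 to -50 of its inner start, also inside an interval and 108.5 bp from the summit. The other FHL2 box, CCTTAAAAGG at -85 to -76 of the outer start, was 16600.5 bp from the nearest summit. ACTA2 had CCCTATATGG at -121 to -112 and CCTTGTTTGG at -71 to -62 of its inner start, each with 1 mismatch, and both were outside any interval. Boxes with up to 1 mismatch were common, in 18.9% of all windows and in 27.8% of these. GGGCGG was found in 11 of the 18 windows (61.1%) and in 45.0% of all. The full set of 35116 windows also covers genes that are not protein-coding, and 22199 of them are at starts of protein-coding genes. The other motifs searched were TATAAA, in 22.2% of these windows and 11.5% of all, and CATTCC, a TEAD motif, in 22.2% and 14.0%. TGANTCA, the AP-1 motif, was in 5.56% and 7.71%, and CCGGAAGT, an ETS motif, in 5.56% and 4.14%. No TATAAA match overlapped a CArG box. Over all protein-coding starts, 51.3% of the 277 with a CArG box had a summit within 1000 bp, and 62.8% of those without one did. These sets were not matched for GC content, over which the share with a summit also varied, as given below.

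A summit lay within 1000 bp of a start in 9 of the 10 genes, against 65.9% of protein-coding genes and 67.7% of the 15843 whose starts are listed. For MYL9 and TAGLN, whose strand the tables used do not give, either end of the gene was counted, so the summit used may not be at the start. CNN1 had none. The authors' enrichment at the strongest such summit ranged from 4.19 to 17.3, with a median of 8.61 (n = 9 genes). The 4.19 was at the higher-coordinate end of TAGLN, and its other end had 3.16. The genes were chosen by name with earlier results of these data known, so this median describes them only. Across 13207 protein-coding genes with a start summit the median was 11.9, with quartiles of 7.25 and 14.8. The enrichment is the fragment pileup over a local background, and both parts were recovered from the deposited values. Fragments here means units of pileup, since the sources used do not say whether fragments or single reads were counted. Intervals on pileups are exact 95% Poisson intervals, which take each unit as an independent count, and cover counting error only. Copy number of these loci was not analysed here.

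**Figure D1:**
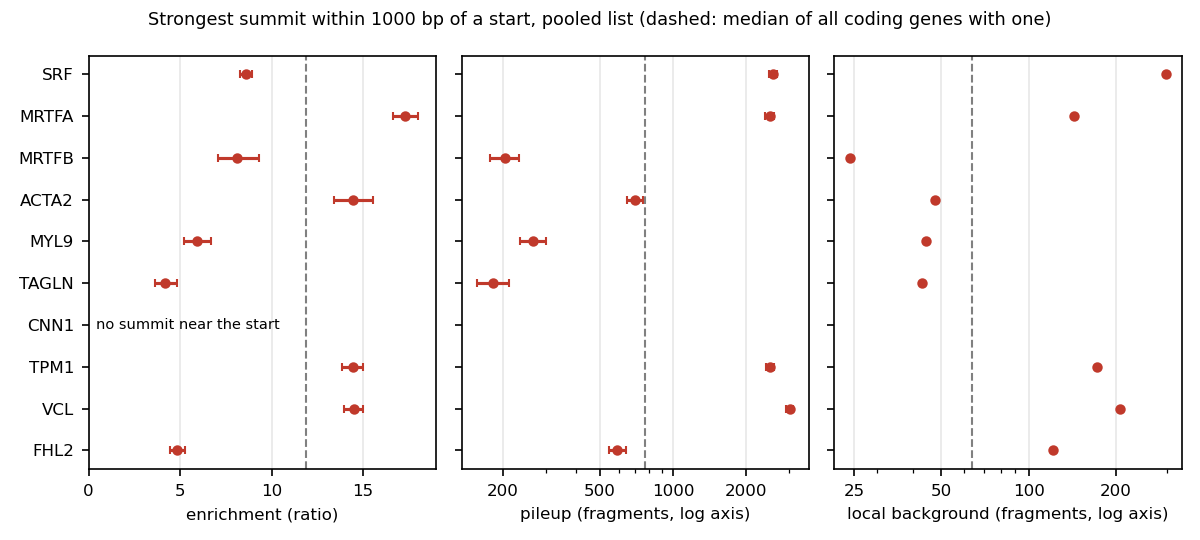
Enrichment, fragment pileup and local background of the strongest summit within 1000 bp of a start, by gene, from the pooled list. Bars are 95% Poisson counting intervals of the pileup, carried over to the enrichment with the background held fixed. VCL, SRF, TPM1 and MRTFA sit between 2494 and 3009 fragments, SRF has the highest background, and CNN1 has no point.

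Among the regulators, SRF spans 43171269 to 43181506 on chromosome 6. Its start summit, at 43171208 and 61 bp upstream of the start, held 2581 fragments (2482 to 2683), an enrichment of 8.61. The pileup exceeded that of 93.4% of protein-coding genes with a start summit, while the enrichment exceeded only 31.2%. The local background was 298.8 fragments, 14.7 times the genome-wide value of 20.3 and above that of 98.6% of these genes. A further summit in the SRF gene, at 43174665, had a pileup of 2117 (2028 to 2209) over a background of 304.1. This summit was 2269 bp downstream of the inner listed start, which had no summit within 1000 bp. The strongest enrichment in the SRF window, 12.4 at 43182145, lay within 1000 bp of a start of CUL9, the neighbouring gene.

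MRTFA and MRTFB encode closely related coactivators, and their start summits were far apart in height. MRTFA spans 40410289 to 40636719 on chromosome 22, and its summit at 40636833, 114 bp upstream of the outermost start, reached 17.3 in enrichment with 2494 fragments (2397 to 2594). That enrichment was the highest of the 75 and exceeded 94.4% of protein-coding genes with a start summit. MRTFB spans 13994774 to 14266779 on chromosome 16, and its strongest summit, at 14071394, reached 8.14 with 204 fragments (177 to 234) over a background of 24.2. The intervals of the pileups do not overlap. Another MRTFB summit, at 14186381 and 305 bp upstream of the listed start at 14186686, held 296 fragments (263 to 332), an enrichment of 7.86. Around its upstream gene end the nearest summit was 8652 bp inside the gene, with an enrichment of 2.39. Of the 3 listed MRTFA starts, both inner ones lacked a summit within 1000 bp.

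The MRTFA gene also held 10 summits away from its starts, whereas the MRTFB gene, which is longer, held 2. The strongest in MRTFA, at 40512629, had an enrichment of 12.9, above 95.6% of 91012 summits lying over 1000 bp from any start, in intervals of at most 10 kb. Its pileup was 331 (296 to 369). An interval from 40498420 to 40499494 held a pair of summits with pileups of 688 and 530 and enrichments of 9.65 and 7.41. The strongest summit of this kind in MRTFB reached 4.59, at 14181516.

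VCL and TPM1 encode parts of the general adhesion and actin machinery, and both had strong start summits. VCL encodes vinculin, which links integrin adhesions to actin, and spans 73998116 to 74121363 on chromosome 10. At 73997956, 160 bp upstream of its start, the enrichment was 14.5 and the pileup 3009 (2902 to 3118), the highest of the set and above 95.9% of protein-coding genes with a start summit. The 3 copies of GGGCGG printed above lay 3.5, 30.5 and 112.5 bp from this summit. A smaller VCL summit at 73999356 had a pileup of 650 over a background of 206.8, an enrichment of 3.13. TPM1 encodes a tropomyosin, which coats actin filaments, and spans 63042747 to 63071915 on chromosome 15. It had a start summit at 63048333 of enrichment 14.4 and pileup 2508 (2411 to 2608). A second TPM1 summit at 63042623 was 124 bp outside the upstream end of the gene, where the promoter table lists no start. Its enrichment was 12.3 and its pileup 971 (911 to 1034).

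By pileup the start summits of the smooth muscle targets were lower than those of VCL and TPM1, and CNN1 had none. By enrichment ACTA2 was level with VCL and TPM1, while MYL9 and TAGLN were lower. ACTA2 encodes smooth muscle actin and spans 88935074 to 88991337 on chromosome 10. Its strongest summit, at 88951853, lay 920 bp downstream of the inner start, and held 700 fragments (649 to 754), an enrichment of 14.5. The accessible interval, 88951547 to 88952141, did not reach the start or the CArG-like boxes upstream of it, and within 500 bp no ACTA2 start had a summit. Near the outer start the summit at 88990758 held 468 fragments (427 to 512), an enrichment of 9.39. A start of FAS, the death receptor gene, lay within 1000 bp of that same summit, so it cannot be assigned to ACTA2 alone.

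MYL9 encodes a regulatory light chain of myosin and spans 36541519 to 36551447 on chromosome 20. At its lower-coordinate end an interval held summits of enrichment 5.92 and 4.29, with pileups of 267 (236 to 301) and 196 (170 to 225). At its other end the summit within 1000 bp had an enrichment of 2.22. TAGLN, which encodes the actin-binding protein transgelin, spans 117199294 to 117207465 on chromosome 11. The TAGLN summit 55 bp outside the lower-coordinate end held 166 fragments (142 to 193), an enrichment of 3.16. The other, 339 bp inside the opposite end, held 183 (157 to 212), an enrichment of 4.19. These TAGLN pileup intervals overlap. Carried over to the enrichment they run from 2.70 to 3.68 and from 3.61 to 4.84, which overlap only slightly. A difference between the ends was not tested. Among protein-coding genes with a start summit, the higher enrichment of MYL9 exceeded 20.2% and that of TAGLN 14.1%.

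CNN1 encodes calponin, a smooth muscle protein that binds actin and myosin, and spans 11538851 to 11550323 on chromosome 19. The nearest summit to its start was 2666 bp upstream, at 11536185, where 386 fragments (348 to 426) gave an enrichment of 6.55. The CNN1 window was nevertheless rich in summits, with 2.22 per 10 kb, above 96.8% of protein-coding genes. Of its 7 summits, the strongest pair lay at starts of other genes, ECSIT with an enrichment of 14.3 and ELOF1 with 13.6. Only 1 was inside CNN1, at 11546069, with an enrichment of 5.19. No summit near the CNN1 start appeared when the distance was widened to 2500 bp.

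FHL2 encodes a LIM protein that binds SRF and is itself a target. The gene spans 105357712 to 105438529 on chromosome 2. Its outer starts, with the CArG box CCTTAAAAGG, had their nearest summit at least 16681 bp away, outside the window. At the inner start the summit at 105398997 had a pileup of 592 (545 to 642) over a background of 121.2, an enrichment of 4.85. Stronger summits flanked it inside the gene. The one at 105404186, 4519 bp upstream of the nearest listed start, held 1543 fragments (1467 to 1622), an enrichment of 12.96. The one at 105396877 held 1152 (1086 to 1220), an enrichment of 10.2. The enrichment at 105404186 exceeded 95.7% of the summits away from starts.

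**Figure D2:**
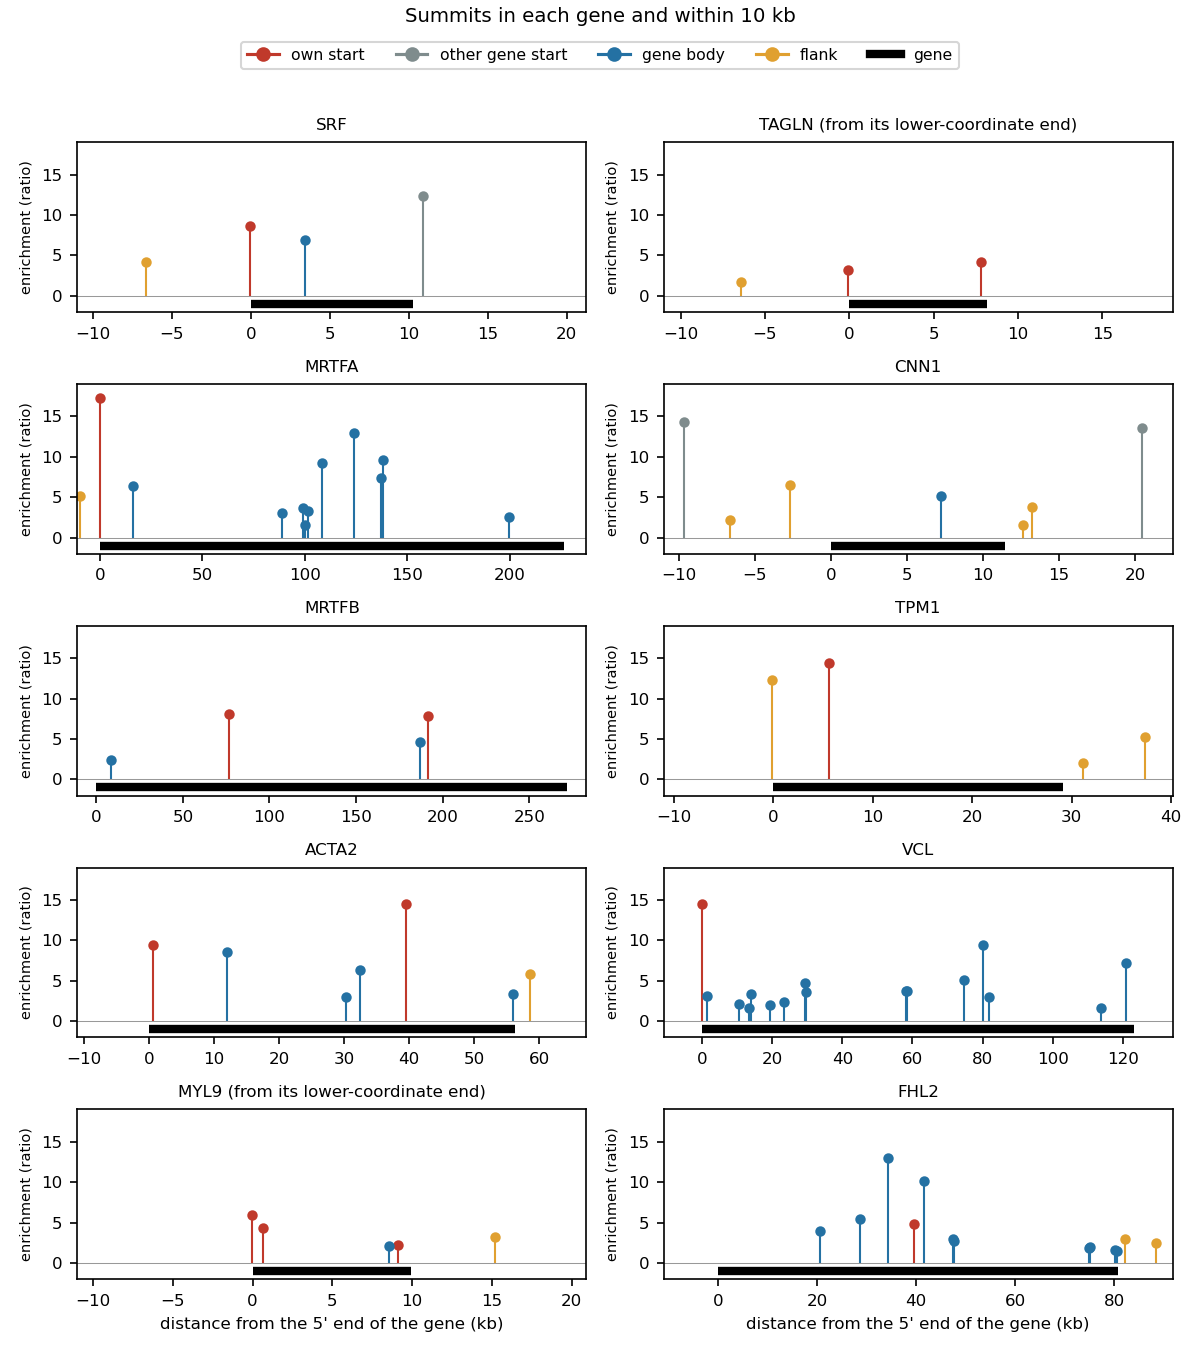
Enrichment of each of the 75 summits against distance from the 5′ end of the gene in kb, or from the lower-coordinate end for MYL9 and TAGLN, in 10 panels. Colours give the class of the summit, with own start meaning within 1000 bp of a listed start (either end for MYL9 and TAGLN), and the black bar is the gene. MRTFA, VCL and FHL2 carry 10 to 15 summits in the gene away from their starts, and the tall CNN1 summits lie at starts of other genes.

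By pileup, taken at the start summit of highest enrichment in each gene, the order was VCL, SRF, TPM1, MRTFA, ACTA2, FHL2, MYL9, MRTFB and TAGLN. The counting intervals of SRF, TPM1 and MRTFA overlap, as do those of MRTFB and TAGLN. Between the other neighbours they do not, but those of ACTA2 and FHL2, and of MYL9 and MRTFB, lie close to each other. By enrichment the order was MRTFA, VCL, ACTA2, TPM1, SRF, MRTFB, MYL9, FHL2 and TAGLN, and only 2 of the 9 genes, MYL9 and TAGLN, had the same rank by both measures. From enrichment to pileup SRF moved from rank 5 to 2 and MRTFA from 1 to 4, and the other genes by at most 2 ranks. With the highest pileup at any start summit instead, a choice made after the data were seen, MRTFB at 296 passed MYL9 at 267, with overlapping intervals. Only TAGLN then had the same rank by both measures.

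**Figure D3:**
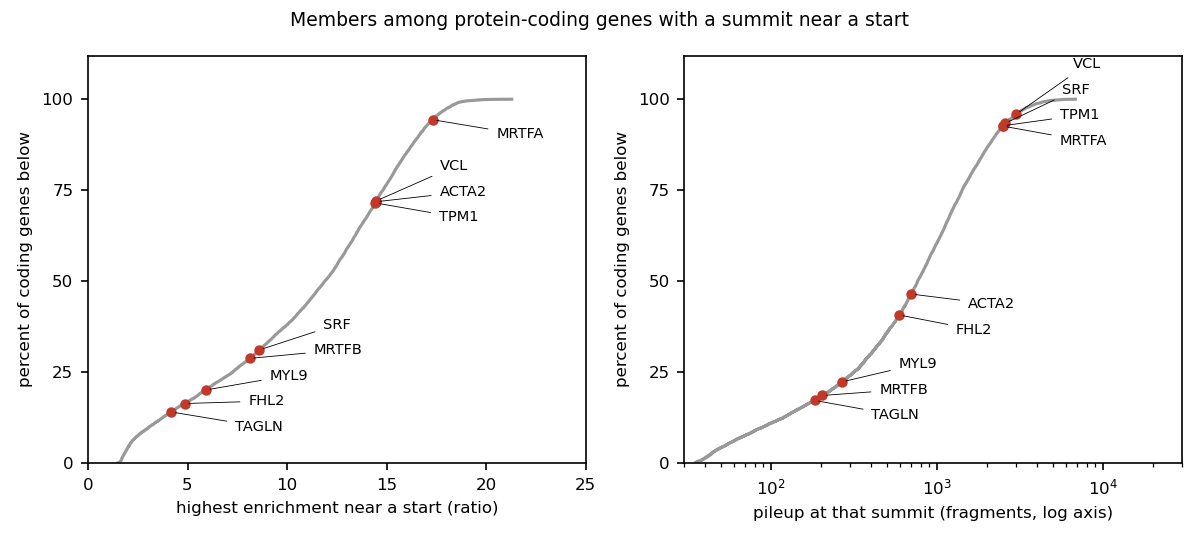
Cumulative share of the 13207 protein-coding genes with a start summit (grey line) against the highest enrichment within 1000 bp of a start, left, and the pileup at that summit, right. The 9 genes with a start summit are marked. SRF lies at 31.2% by enrichment and 93.4% by pileup, and TAGLN, plotted at its higher-coordinate end, lies lowest in both.

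Of the 75 summits, 14 lay at the genes' own starts, 3 at starts of other genes, 44 elsewhere in the genes and 14 in the flanks. Median enrichment was 7.996 at own starts and 3.51 in the gene bodies, close to the 3.52 of all summits away from starts. Local background was raised at 67 of the 75 summits, including all 14 at own starts. In the whole list 53% of summits were at the genome-wide value, and among 108109 summits in intervals of at most 10 kb 65.0% were raised. VCL had 15 summits in the gene outside its start, with enrichments from 1.65 to 9.38, the highest of them at 74078272. Per 10 kb of window, MRTFB had the fewest summits, 0.137, which was above 14.3% of protein-coding genes, whereas MYL9 had 1.67, above 90.8%.

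Base composition was compared between listed starts with and without a summit. A summit lay within 1000 bp of 12 of the 18 starts (66.7%), against 62.7% of 22199 listed starts of protein-coding genes. These starts are not independent, since several share a summit. The ratio of observed to expected CpG had a median of 0.852 at the 12 starts with a summit and 0.307 at the 6 without. Over all protein-coding starts the medians were 0.835 and 0.328, so the starts of these genes were close to all starts in this respect. Among all starts the share with a summit was 28.2%, 63.5%, 77.8% and 82.1% in 4 classes of GC content, cut at its quartiles, from the lowest to the highest. CNN1 and the outer FHL2 starts fell in the class with 63.5%, at GC contents of 61.3%, 57.0% and 55.7%. Both inner MRTFA starts, at 45.3% and 41.3%, fell in the lowest. The sixth start without a summit, the inner one of SRF, fell in the highest class, with a GC content of 70.3% and a CpG ratio of 0.727. The MRTFB start at 14186686 was accessible at a GC content of 49.7%, also in the lowest class. ACTA2 had a CpG ratio of 0.265 at its inner start, below 0.355 at the CNN1 start.

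**Figure D4:**
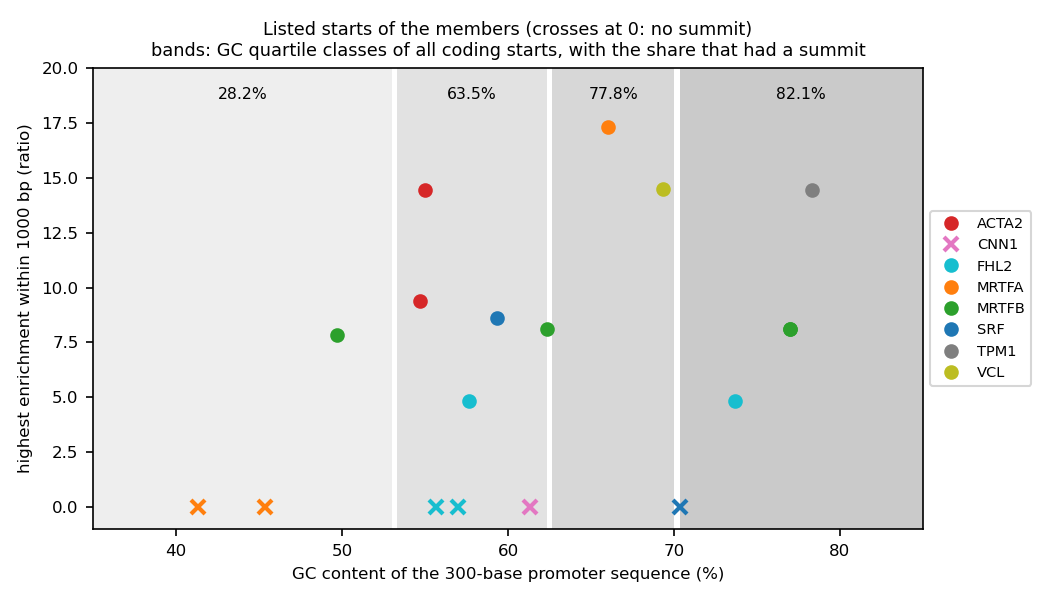
Highest enrichment within 1000 bp of each of the 18 listed starts against the GC content of its 300-base window, coloured by gene. Crosses at 0 are the 6 starts with no summit. Bands are 4 classes of all protein-coding starts, cut at the quartiles of GC content, with the share that had a summit printed in each. Of the 18 starts, 4 of 5 in the highest class and 1 of 3 in the lowest had one.

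Relatives of the target genes were examined by family. All 3 other tropomyosin genes had start summits, TPM3 with an enrichment of 14.7, TPM4 with 10.5 and TPM2 with 8.93. In the calponin family CNN3 had 14.5 and CNN2 3.07, while CNN1 had none. TAGLN2, a relative of TAGLN found in many tissues, had 6.96 and TAGLN3, a neuronal one, had none. ACTB and ACTG1, the cytoplasmic actins, had 9.19 and 6.91 with pileups of 3546 and 2537. The muscle actin genes ACTA1, ACTC1 and ACTG2 had no start summit. MYOCD, the muscle-restricted relative of the MRTFs, had no summit near either end and 1 in its window, with an enrichment of 4.08.

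Other genes of the pathway were counted against the same background of 65.9%. The lists here and below were chosen with earlier results of these data known, so their shares are descriptions only. Of 13 cofactors and related factors, 10 had a start summit (76.9%), led by SCAI, which inhibits MRTFA, with 19.3, then ELK1 with 15.7 and CSRP2 with 14.8. MYOCD, FHL3 and GATA4 had none, and their windows reached 4.08, 16.3 and 13.3.

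Among 38 other contractile and adhesion targets, 29 had a start summit (76.3%) with a median enrichment of 9.86, led by WDR1 with 16.8, CALD1 with 16.6 and MYH10 with 15.5. The 9 without were ACTA1, ACTC1, ACTG2, MYH11, MYLK, DES, TAGLN3, FLNA and FLNC, of which DES, FLNA and FLNC were named after their values were seen. FLNA encodes a broadly expressed filamin that cross-links actin, and its window held 10 summits with enrichments of up to 15.3. The highest enrichment in the windows of these 9 genes ranged from 3.75 at DES to 17.3 at ACTG2. Of 20 immediate early and signalling targets, 18 had one (90.0%) with a median of 9.31, led by ANKRD1 with 14.6, AMOTL1 with 13.1 and EGR2 with 12.6. EGR3 and NR4A1 had none, and their windows reached 8.28 and 14.2. Both target lists had a median enrichment below the 11.9 of all protein-coding genes with a start summit. Their median pileups, 1158 and 1231.5, were above the 765 of all, and that of the 9 SRF, MRTF and target genes with a start summit was 700. In a contrast list of 15 genes of muscle lineages, 0 had a start summit, and 9 had a summit in their window.

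**Figure D5:**
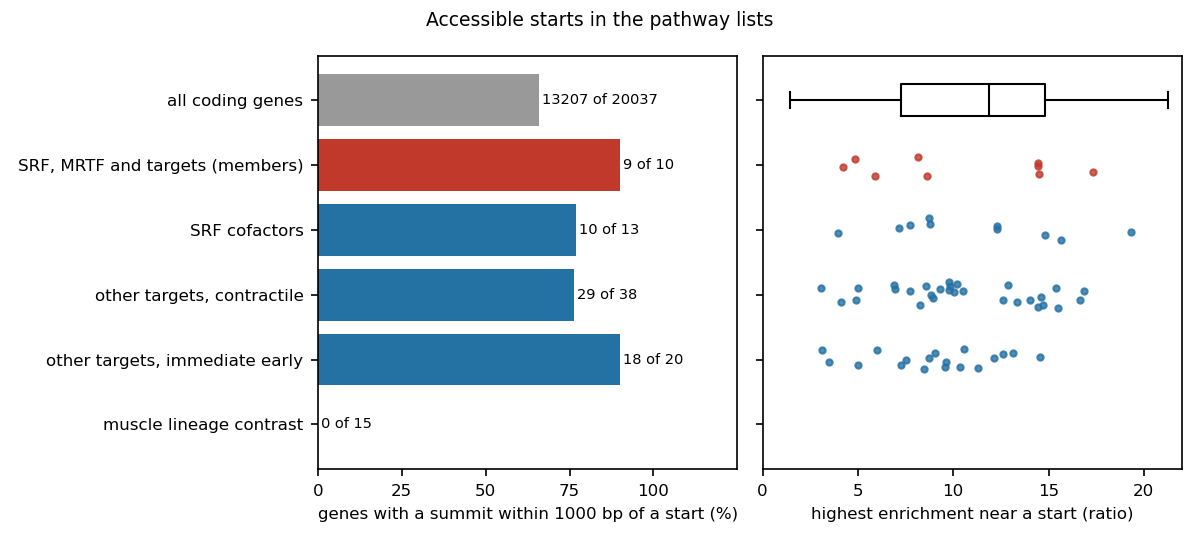
Left, the percentage of genes with a summit within 1000 bp of a start, by list, with counts. Right, the highest enrichment near a start of each gene with one (points, spread vertically for clarity), and of all protein-coding genes as a box of the quartiles with the median. Whiskers reach the lowest and highest values, 1.43 and 21.3. The muscle lineage list has no point.

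Markers of the cell line were checked in the same list, where 65.9% of protein-coding genes had a start summit. Of 7 mesenchymal markers 3 had a start summit, FN1 with an enrichment of 15.1, VIM with 6.64 and PDGFRB with 3.70, whereas COL1A1, COL1A2, COL3A1 and THY1 had none. Of 4 epithelial markers, EPCAM and KRT18 had weak ones of 2.11 and 1.75, and CDH1 and KRT8 had none. Away from the start, the windows reached 14.1 at COL1A1, 3.75 at COL1A2, 4.04 at THY1, 12.5 at CDH1 and 12.7 at KRT8. That of EPCAM reached 15.9, and that of COL3A1 held no summit. The 3 skeletal and 2 cardiac muscle markers had no start summit. Their windows reached 7.76 at MYOD1, 1.93 at MYOG, 12.5 at CKM, 8.75 at TNNT2 and 1.70 at MYH7. Of 4 smooth muscle markers only LMOD1 had a start summit, with 4.89. The windows reached 18.4 at LMOD1, 17.3 at ACTG2, 4.64 at MYH11 and 14.3 at CNN1, the last at a start of ECSIT. All of these muscle markers are among the genes and lists counted above, so they are not a separate check. No start was listed for COL1A1, COL1A2, COL3A1, THY1, CDH1, EPCAM, KRT18, MYOD1, MYH7 and MYH11, so either gene end was counted.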

How the data were processed

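Per the submitters' processing notes, the tools included fastp 0.20.0, Bowtie2 2.4.3, deepTools 3.5.0, SAMtools and MACS2 2.2.7.1, with the build hg38; their roles are not given in the sources used here, nor are read filters, duplicates or a control. The authors deposited 1 pooled peak list for the 12 libraries. Its deposited enrichment is a ratio of summit pileup to background, its deposited p-value and q-value columns are −log10 values, and its deposited score equals the −log10 q scaled and truncated. The summit offset was added to the interval start and written 1-based. The genes and lists were chosen with earlier results of these data known.

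Pileup and background were solved from enrichment and p under a Poisson model, taking enrichment as (pileup + 1)/(background + 1); the pileup came out whole, within 0.05, in 99.96% of lines. On 2000 summits simulated under this same model both were recovered in 100%, which checks the solving and not the model. Starts came from the RefSeq promoter table (GRCh38.p14), which covered 15843 of 20037 protein-coding genes; otherwise either gene end was used. A background above the genome-wide value by over 0.2% was called raised. All 10 genes are named, with the 3 strongest genes of each list, up to 5 genes without a start summit, and the families of the targets. One pathway list is not reported here. Exons and introns were not used here. No test was run, since the list has no samples to compare. Python 3.11.15, numpy 2.4.6, pandas 2.3.3 and scipy 1.17.1 were used.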

Additional observations from a re-analysis of the deposited data

How the results depend on the processing

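Under the alternatives tried, counts stayed within 1.5 times those reported. The 75 summits became 53 in the gene bodies alone, 66 with flanks of 5 kb, 95 with flanks of 25 kb, 57 at a −log10 q of at least 10 and 64 with 1 per interval. The 9 genes with a start summit became 8 within 500 bp, where ACTA2 was lost, and 8 with either gene end in place of the listed starts, where MRTFB was lost; CNN1 had none under any setting. The median enrichment of 8.61 moved between 8.37 and 10.9, and was 8.61 again when the upstream gene end was added to the listed starts, an alternative chosen after the data were seen. The order of the genes was the one result that moved: ranked by pileup, 2 of 9 genes kept their rank, by −log10 q also 2, and by the highest pileup at any start summit, added after the data were seen, 1. No paired analysis was possible because the pooled list has no column per library. For the same reason single replicates were not left out, and the planned test between concentrations was not run. Pileups limit precision: at 166 fragments the counting interval runs from 142 to 193.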
